A study of Mus musculus with 8 samples.

Results

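Transporters that carry amino acids into T cells were examined in CD8 single-positive (CD8SP) thymocytes with or without Ndrg3. The 10 genes were taken by name from the deposited count table of 47937 genes: Slc7a5, Slc3a2, Slc7a6, Slc7a11 and Slc43a1, Slc1a5, Slc38a1 and Slc38a2, Slc7a1, and Slc38a9. All 10 had a row in the table, and 9 of them, along with 14633 genes in all, passed the filter on low counts. Bulk RNA sequencing was done on thymic CD8SP cells that were sorted as TCRb+ and MHC-I high from mice of 6 to 7 weeks. The 4 Ndrg3 ctrl libraries came from mice labelled Ndrg3 +/fl;Lck-cre+, which keep 1 Ndrg3 allele without loxP sites, and the 4 Ndrg3 TKO libraries from mice labelled Ndrg3 fl/fl;Lck-cre+. Both groups thus carried the Cre transgene and at least 1 floxed allele, so the comparison sets loss of both alleles against loss of 1 and holds no Cre-free group. The Cre is driven by the proximal Lck promoter, which acts in T cell precursors of the thymus, and the floxed allele came from targeted embryonic stem cells. The question was which transcripts differ in mature CD8SP thymocytes before they leave the thymus.

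Library totals ran from 21126698 to 32668081 counts. Ndrg3 checked the labels: its normalised read counts were 2294, 2359, 2349 and 2342 in Ndrg3 ctrl and 1460.0, 1402, 1537 and 1601 in Ndrg3 TKO. On the log2 scale it fell by 0.64 (SE 0.053, adjusted p = 1.04e-05, edgeR). The normalised read count is the count scaled to the mean library total after TMM normalisation. Cd8a averaged 39568 ± 554 (SD, n = 4) in Ndrg3 ctrl and Cd4 19.3 ± 15.9 (SD, n = 4), while the myeloid, erythroid and stromal marker lists summed to at most 157 per library and the B cell markers other than Ighm (6982 to 8748) were at or below 17.5 each. Of the NKT and gamma delta T cell markers, 3 of 6 were tested and Klrb1c was called (log2 fold change 2.62, SE 0.36, adjusted p = 0.00149, edgeR), with the list's sum at 390 to 485 in Ndrg3 ctrl and 470 to 714 in Ndrg3 TKO. The list did not move one way: Cd163l1 had 39.8 to 98.4 normalised reads in Ndrg3 ctrl and 102 to 318 in Ndrg3 TKO (adjusted p = 0.216, edgeR), Trdc 301 to 395 and 304 to 408, and Zbtb16, the defining factor of NKT cells, 4.23 to 9.70 and 0.909 to 2.67, below the filter. Y-linked reads were present in 3 libraries, replicate 2 of Ndrg3 ctrl and replicates 2 and 3 of Ndrg3 TKO, so sex was not balanced between the groups. The labels call the libraries biological replicates and name no animals, and the p-values measure the spread between these libraries.

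Amino acids cross the plasma membrane on solute carriers that differ in what they move and in what drives them. Slc7a5 (LAT1), Slc7a6 (y+LAT2) and Slc7a11 (xCT) are light chains that reach the surface bound to Slc3a2, the heavy chain known as CD98 or 4F2hc. Slc7a5 exchanges large neutral amino acids such as leucine, Slc7a6 exchanges cationic for neutral amino acids, and Slc7a11 imports cystine for glutathione. Slc43a1 (LAT3) lets large neutral amino acids pass down their gradient without a heavy chain. Slc1a5 (ASCT2) exchanges small neutral amino acids including glutamine, Slc38a1 and Slc38a2 take up neutral amino acids with sodium, and Slc7a1 is a carrier of arginine and lysine. Slc38a9 sits in the lysosomal membrane, where it reports arginine to the Rag GTPases that recruit mTORC1. In T cells several of these carriers are known to be induced on activation, with Myc and ATF4 among the factors that act on their genes.

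The bases upstream of the transcript start were searched for the E-box that Myc binds (CACGTG) and for the core of the C/EBP-ATF response element (TGATGNAA), on both strands and over 250 bases. RefSeq promoter entries on GRCm38.p6 matched 7 of the 10 genes, and Slc7a5, Slc1a5 and Slc38a1 had none. Among all 32851 RefSeq starts, 6.02% held the E-box and 3.45% the response element core. Of the 7 genes, Slc43a1 held 1 E-box and Slc7a11 held 2 response element cores. They are shown with Slc38a2 because Slc43a1 and Slc38a2 were the members whose groups did not overlap, lower in 1 case and higher in the other, and Slc7a11 was the member with the lowest counts. The stretch of Slc43a1 is chr2:84840247-84840276 (plus strand), 46 bases before its RefSeq start and inside an exon annotated for another transcript. The stretch of Slc38a2 is chr15:96699734-96699853 and that of Slc7a11 is chr3:50443619-50443738, both on the minus strand, 5 bases before the RefSeq start and outside annotated exons. Each is written 5′ to 3′ with matches in capitals.
Slc43a1: agggtctccctcCACGTGgcagccgtggga
Slc38a2: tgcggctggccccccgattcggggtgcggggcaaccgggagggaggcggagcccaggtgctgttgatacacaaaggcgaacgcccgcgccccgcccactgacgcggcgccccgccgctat
Slc7a11: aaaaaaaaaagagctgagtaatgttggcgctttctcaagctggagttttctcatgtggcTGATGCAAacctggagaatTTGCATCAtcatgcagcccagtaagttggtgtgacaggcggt
In the Slc7a11 stretch the first match reads on the strand shown and the second on the other strand. The Slc38a2 window held neither motif. A match here is a description of the letters and not of a bound site.

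Counts of Slc43a1 were lower and counts of Slc38a2 higher in every Ndrg3 TKO library than in any Ndrg3 ctrl library, and neither gene passed the main test. With an adjusted p under 0.05 in edgeR's quasi-likelihood test, 0 of the 9 tested genes were called, against 1.15% of all tested genes. At an unadjusted p under 0.05 there were 2, Slc43a1 (lower) and Slc38a2 (higher), against 10.9% of all tested genes (5.51% lower and 5.34% higher). limma-voom called 0 of the 9, against 0.875% of all tested genes, and DESeq2, the tool of the study, called Slc43a1 alone, against 1.93% of the genes it tested. The same pair, 1 in each direction, had groups that did not overlap, as did 7.04% of all tested genes (3.44% higher and 3.59% lower). The log2 fold change was negative in 7 of the 9, with a median of -0.059 and a range from -0.53 to 0.18, while 51.2% of all tested genes were negative with a median of -0.0033. In total the 10 genes gave 36920 ± 1881 normalised reads in Ndrg3 ctrl and 37139 ± 1723 in Ndrg3 TKO (SD, n = 4 each). With a block on the replicate number, edgeR called 1 of the 9 higher and 3 lower, and 800 of the 14633 tested genes in all (435 higher and 365 lower). The labels do not say what the replicate number stands for, and the main test has no block. In sorted bulk samples, fewer cells that express a gene and less RNA per cell cannot be told apart.

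**Figure D1:**
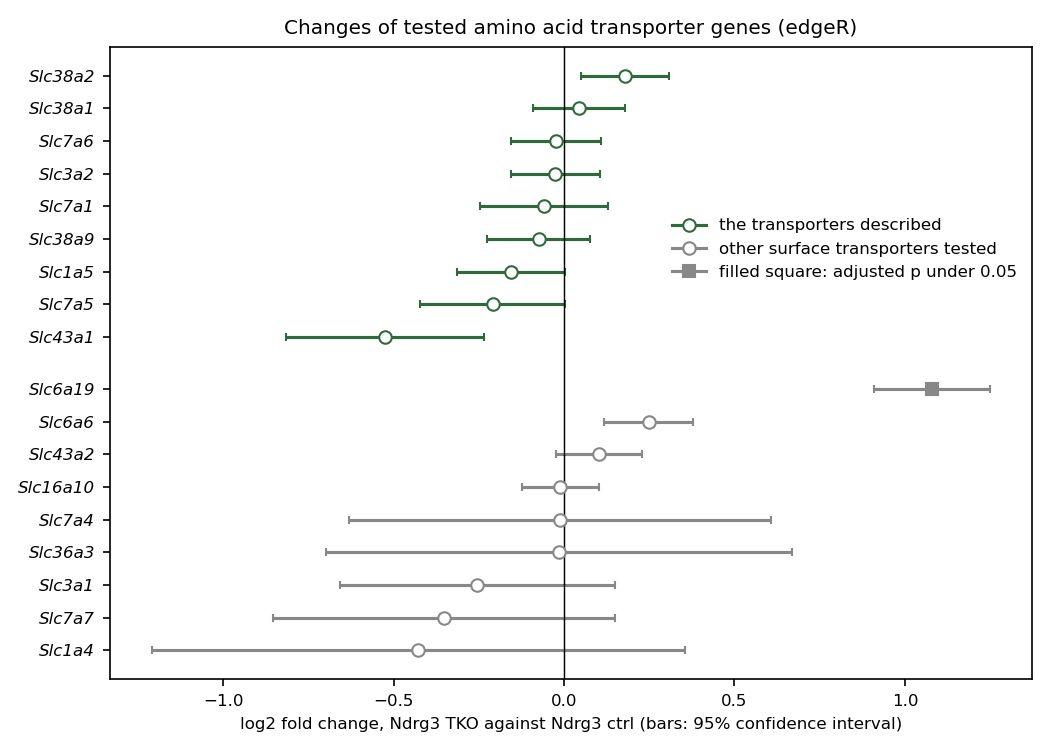
Log2 fold change of Ndrg3 TKO against Ndrg3 ctrl (horizontal axis) with its 95% confidence interval from edgeR, for the 9 tested transporters described here (green) and 9 other tested surface transporters (grey), n = 4 libraries per group. Only Slc6a19 (filled square) had an adjusted p under 0.05, and among the green symbols the intervals of Slc43a1 and Slc38a2 alone leave out 0.

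**Figure D2:**
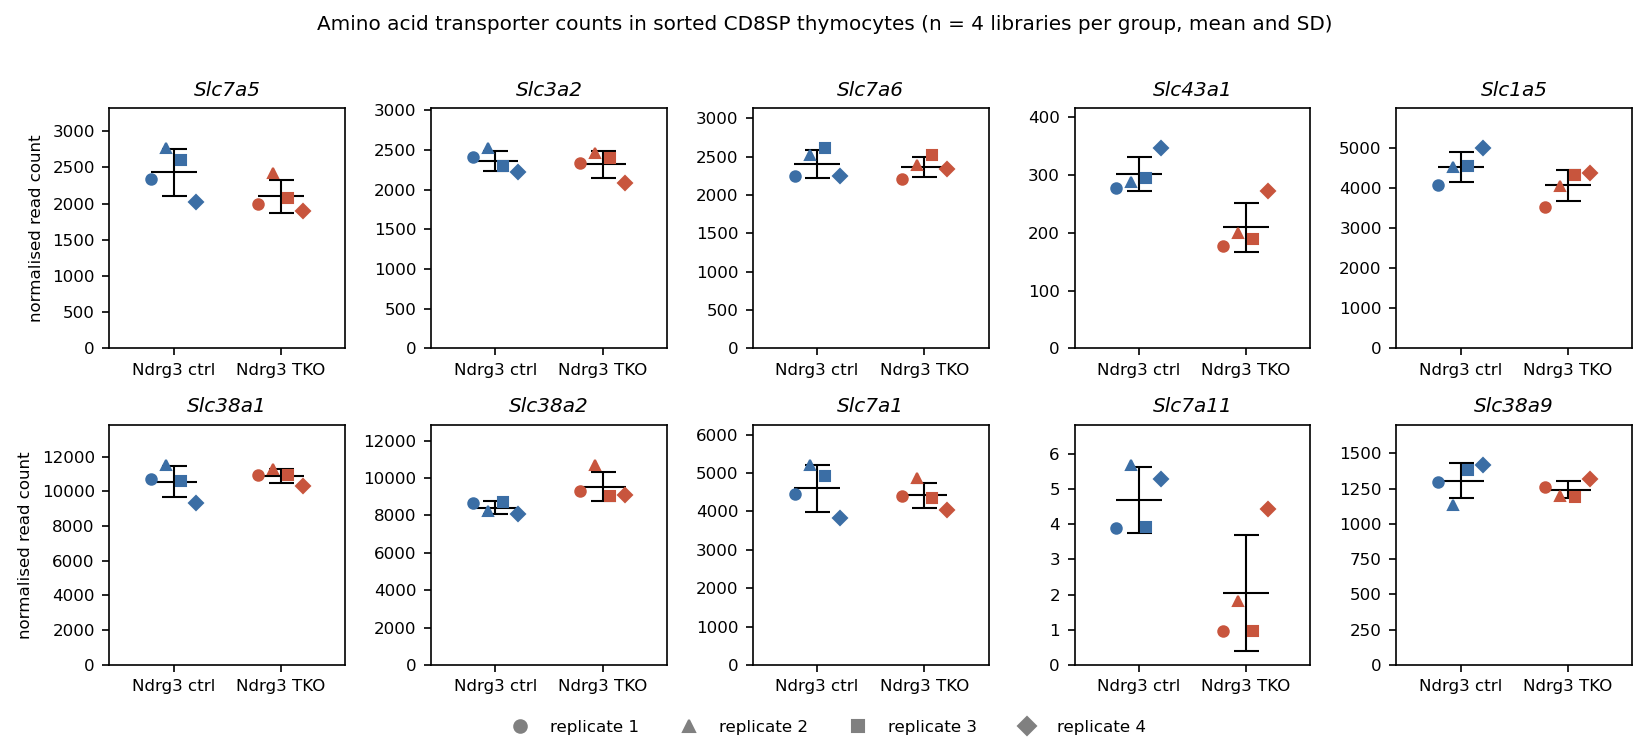
Normalised read count (vertical axis, from 0) of each transporter in the 4 Ndrg3 ctrl (blue) and 4 Ndrg3 TKO (red) libraries, with the symbol giving the replicate number and black bars the mean and SD. The groups do not overlap for Slc43a1 (278.5 to 346 against 177 to 272) and Slc38a2 (8047 to 8723 against 9058 to 10692), and overlap for the other 8.

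Slc43a1 showed the largest difference among the 9 tested genes. This gene on chromosome 2 (84838850 to 84863594, plus strand, GRCm38) encodes LAT3, a facilitator of leucine and other large neutral amino acids. Its normalised read counts were 278.5, 289, 295 and 346 in Ndrg3 ctrl and 177, 199, 189 and 272 in Ndrg3 TKO. All 4 Ndrg3 TKO libraries lay below all 4 Ndrg3 ctrl libraries, with replicate 4 the highest of its group in both and the knockout library of that number just under the lowest control. The mean went from 302 ± 30.1 to 209 ± 42.6 (SD, n = 4), a difference of -30.6% (log2 fold change -0.53, SE 0.14, 95% confidence interval -0.82 to -0.24). By edgeR the adjusted p was 0.0951, which missed the threshold, and by DESeq2 it was 0.0192 at the same fold change. Leaving out replicate 4 of Ndrg3 TKO gave -0.68 with an adjusted p of 0.0154 by edgeR, and over all 8 such omissions the adjusted p ran from 0.0154 to 0.261. Between the libraries without Y-linked reads alone, the log2 fold change was -0.44 (adjusted p = 0.424, edgeR). Its relative Slc43a2 (LAT4), a facilitator of the same kind of substrates, stood far higher, at 5545 to 6396 in Ndrg3 ctrl and 6109 to 7008 in Ndrg3 TKO, with overlapping groups and a log2 fold change of 0.10 (SE 0.059, adjusted p = 0.568, edgeR). Whether the changes of these 2 genes differ was not tested.

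The heavy chain Slc3a2 (chromosome 19, 8706882 to 8723369, minus strand) differed between the groups by less than the spread between libraries. It had 2406, 2518, 2292 and 2225 normalised reads in Ndrg3 ctrl and 2335, 2459, 2394 and 2079 in Ndrg3 TKO. The ranges overlapped over most of their width, and the log2 fold change was -0.026 (SE 0.061, 95% confidence interval -0.16 to 0.10, adjusted p = 0.911, edgeR).

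Its light chain Slc7a5 (chromosome 8, 121881150 to 121907694, minus strand), the leucine exchanger, had 2343, 2762, 2602 and 2016 normalised reads in Ndrg3 ctrl. In Ndrg3 TKO it had 1998, 2419, 2082 and 1898. Replicate 4 of Ndrg3 ctrl lay among the knockout libraries and replicate 2 of Ndrg3 TKO among the controls. The means were 2430.7 ± 326 and 2099 ± 226 (SD, n = 4), a log2 fold change of -0.21 (SE 0.098, 95% confidence interval -0.42 to 0.0027, adjusted p = 0.465, edgeR). That interval includes 0.

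Slc7a6 (chromosome 8, 106168857 to 106198706, plus strand), the light chain for cationic and neutral amino acids, had 2244, 2524, 2607 and 2255 normalised reads in Ndrg3 ctrl and 2208, 2393, 2522 and 2346 in Ndrg3 TKO. Its groups overlapped, with a log2 fold change of -0.024 (SE 0.062, 95% confidence interval -0.16 to 0.11, adjusted p = 0.923, edgeR). Slc7a11 (chromosome 3, 49892526 to 50443614, minus strand), the cystine light chain, was close to absent. It had raw counts of 4, 4, 4 and 5 in Ndrg3 ctrl and 1, 2, 1 and 5 in Ndrg3 TKO, too few for the test and for a fold change, and the groups overlapped. Most genes of a list of glutathione and cystine use passed the filter all the same: 10 of 12 were tested, 0 were called by edgeR and 1 had an unadjusted p under 0.05. That gene was Gclm, a subunit of the enzyme that starts glutathione synthesis (591 ± 47.2 against 500.4 ± 22.2, SD, n = 4, log2 fold change -0.24, SE 0.079, adjusted p = 0.227, edgeR).

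Among the carriers of glutamine and other small neutral amino acids, Slc38a2 was the member with higher counts in Ndrg3 TKO and groups that did not overlap. This sodium-coupled carrier (SNAT2; chromosome 15, 96687392 to 96699730, minus strand) had 8652, 8245, 8723 and 8047 normalised reads in Ndrg3 ctrl and 9308, 10692, 9058 and 9074 in Ndrg3 TKO. Every knockout library lay above every control library, and replicate 2 of Ndrg3 TKO stood apart above the other 3. The means were 8417 ± 325 and 9533 ± 781 (SD, n = 4), a difference of 13.3% (log2 fold change 0.18, SE 0.060, 95% confidence interval 0.050 to 0.31). The unadjusted p was 0.00995 and the adjusted p 0.247 by edgeR, and the adjusted p was 0.185 by DESeq2. Without replicate 2 of Ndrg3 TKO the log2 fold change was 0.12 (adjusted p = 0.397, edgeR), and between the libraries without Y-linked reads it was 0.118 (adjusted p = 0.676, edgeR). Over the 8 omissions of 1 library it ran from 0.12 to 0.203 (adjusted p from 0.273 to 0.405, edgeR). Replicate 2 of Ndrg3 TKO is 1 of the 3 libraries with Y-linked reads, and with a covariate for Y-linked reads over all 8 libraries the log2 fold change was 0.168 (adjusted p = 0.148, edgeR).

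Slc38a1 (SNAT1; chromosome 15, 96571418 to 96642913, minus strand) is the related sodium-coupled carrier on the same chromosome. It had 10706, 11519, 10602 and 9351 normalised reads in Ndrg3 ctrl and 10937, 11312, 10933 and 10304 in Ndrg3 TKO. The control range enclosed the knockout range, and the log2 fold change was 0.044 (SE 0.063, 95% confidence interval -0.090 to 0.18, adjusted p = 0.851, edgeR). The exchanger Slc1a5 (chromosome 7, 16781340 to 16798274, plus strand) had 4086, 4529, 4552 and 4995 normalised reads in Ndrg3 ctrl. In Ndrg3 TKO it had 3541, 4047, 4334 and 4385. The upper part of the knockout range reached into the control range, and the log2 fold change was -0.155 (SE 0.074, 95% confidence interval -0.31 to 0.0028, adjusted p = 0.466, edgeR). Over the 8 omissions of 1 library it ran from -0.202 to -0.094, the latter without replicate 1 of Ndrg3 TKO (adjusted p from 0.332 to 0.808, edgeR).

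The arginine and lysine carrier Slc7a1 (CAT1; chromosome 5, 148327410 to 148399904, minus strand) had 4458, 5212, 4934 and 3822 normalised reads in Ndrg3 ctrl and 4405, 4864, 4358 and 4051 in Ndrg3 TKO. The control range again enclosed the knockout range (log2 fold change -0.059, SE 0.087, adjusted p = 0.859, edgeR). The lysosomal arginine sensor Slc38a9 (chromosome 13, 112660751 to 112738749, plus strand) had 1294, 1135, 1382 and 1417 in Ndrg3 ctrl and 1263, 1200.4, 1187 and 1319.5 in Ndrg3 TKO. These too overlapped (log2 fold change -0.075, SE 0.071, adjusted p = 0.755, edgeR). An exon of an antisense gene overlaps those of Slc38a9 in the annotation, and the strand setting of the counting is not given in the sources used here.

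To compare genes, counts were divided by the length of the principal transcript. In Ndrg3 ctrl Slc38a2 led with 1806 ± 69.7 normalised reads per kb (SD, n = 4), followed by Slc1a5 with 1643 ± 134, Slc38a1 with 1451 ± 123 and Slc3a2 with 1298 ± 71.1. Each of these 4 overlapped the next in range across libraries. The level then stepped down to Slc7a5 at 691 ± 92.6, with Slc7a6 at 642 ± 49.6 and Slc7a1 at 642 ± 84.8 inside its range. A second step led to Slc38a9 at 147 ± 14.2 and Slc43a1 at 121 ± 12.1, which overlapped each other, and Slc7a11 came last at 0.509 ± 0.10. Ndrg3 TKO showed the same 3 tiers, but there Slc38a9 (133 to 148 per kb) lay clear of Slc43a1 (71.4 to 109 per kb). With the length of all annotated exons instead, Slc1a5 came first in Ndrg3 ctrl (1088 ± 89.0 per kb) ahead of Slc38a2 (952 ± 36.7 per kb). Slc3a2 (669 ± 36.6 per kb), Slc7a5 (656 ± 87.8 per kb) and Slc38a1 (612 ± 51.9 per kb) then overlapped in range. The upper step and the order around it thus depend on which transcripts are counted.

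**Figure D3:**
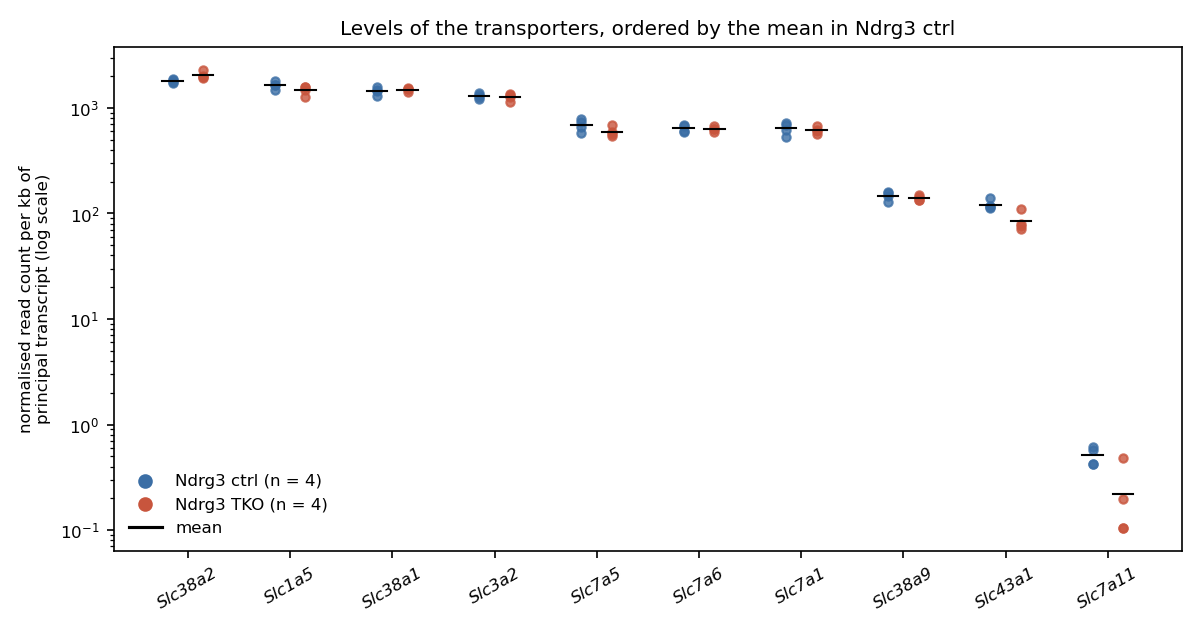
Normalised read count per kb of principal transcript (vertical axis, log scale) of the 10 transporters, ordered by the Ndrg3 ctrl mean, with 1 point per library (blue Ndrg3 ctrl, red Ndrg3 TKO, n = 4 each) and black bars at the means. The top 4 genes sit between 1143 and 2294 per kb, the next 3 between 532 and 785 per kb, Slc38a9 and Slc43a1 between 71.4 and 159 per kb, and Slc7a11 at 0.617 or less.

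Ratios within a library set light chain against heavy chain. The ratio of Slc7a5 to Slc3a2 per kb was 0.504, 0.567, 0.587 and 0.469 in Ndrg3 ctrl and 0.443, 0.509, 0.450 and 0.472 in Ndrg3 TKO, and the groups overlapped. Slc7a6 stood near Slc7a5, at 0.936 ± 0.082 times its level in Ndrg3 ctrl and 1.06 ± 0.11 times in Ndrg3 TKO (SD, n = 4), again with overlap. Among the neutral amino acid carriers the ratio of Slc38a2 to Slc1a5 was 1.26, 1.08, 1.14 and 0.955 in Ndrg3 ctrl and 1.56, 1.57, 1.24 and 1.23 in Ndrg3 TKO. The control library with the highest ratio lay above the lower pair of knockout libraries, and the other 3 controls lay below all 4. No test was run on the ratios.

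Differences between libraries of 1 group were shared by several transporters. In both groups replicate 2 was the highest and replicate 4 the lowest for Slc7a5, Slc3a2, Slc38a1 and Slc7a1. For Slc43a1 and Slc1a5 replicate 4 was the highest and replicate 1 the lowest in both groups, and for Slc7a6 these places went to replicates 3 and 1. Thus 7 of the 9 tested genes had the same numbered libraries at both ends in Ndrg3 ctrl and in Ndrg3 TKO. The share of all tested genes with this pattern was not computed, so the count is not a result about the transporters. Over all tested genes, deviations from the group mean in same-numbered libraries correlated at r = 0.181, 0.415, -0.055 and 0.301 for replicates 1 to 4. After removal of the group means, Slc7a5 and Slc7a1 correlated at r = 0.978 over the 8 libraries and Slc38a1 and Slc7a1 at r = 0.937, the highest of 36 pairs, and Slc38a1 and Slc38a9 at r = -0.851, the lowest. These values are descriptions over libraries that share their scaling, and 4 libraries a group leave few independent differences.

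**Figure D4:**
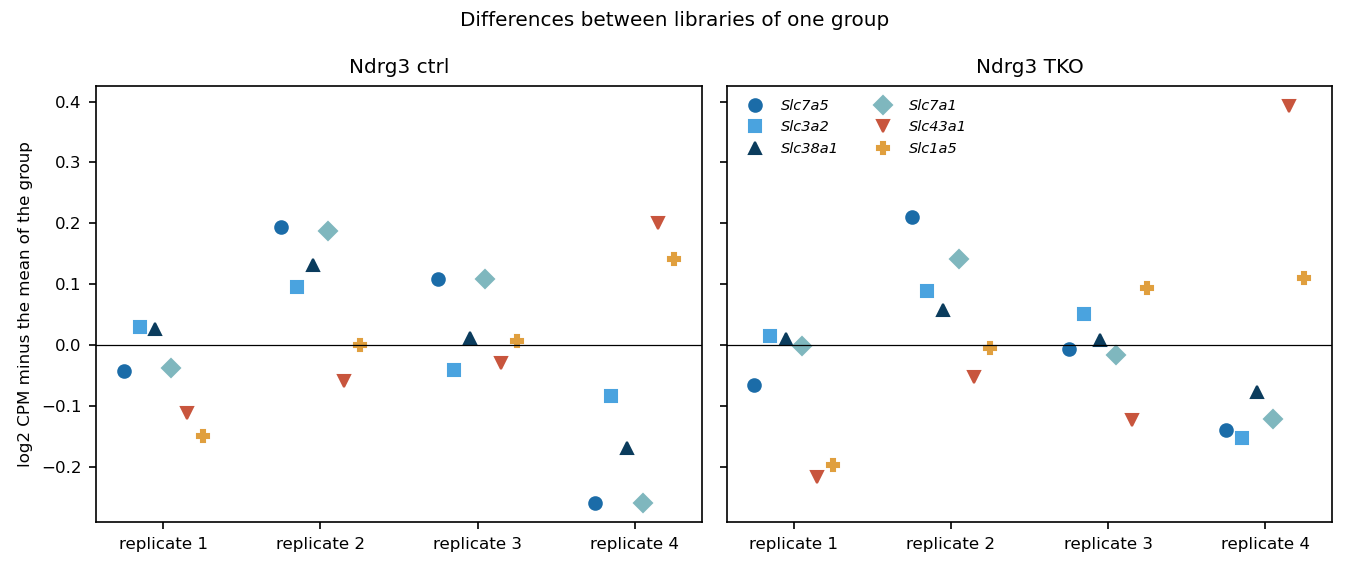
Log2 CPM (counts relative to library size) of 6 transporters minus the mean of the library's own group (vertical axis), by replicate in Ndrg3 ctrl (left) and Ndrg3 TKO (right). Slc7a5, Slc3a2, Slc38a1 and Slc7a1 (blue tones) are highest in replicate 2 and lowest in replicate 4 of both groups, while Slc43a1 and Slc1a5 (red and orange) are highest in replicate 4.

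For the members with an unadjusted p under 0.05, the genes most alike across the 8 libraries by Pearson's r of log2 CPM were listed. Nearest to Slc43a1 were Azi2 (r = 0.980), Mdm1 (r = 0.980) and Cdc7 (r = 0.965). Nearest to Slc38a2 were Tbxa2r (r = 0.964), Trav3-1 (r = 0.963) and Nr1d2 (r = 0.955). None of these 6 was called by edgeR, with adjusted p from 0.116 for Nr1d2 to 0.676 for Trav3-1. They were picked as the highest of all tested genes over only 8 libraries, without removal of the group means. Whether they share regulation with the members was not tested.

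The other surface transporters of amino acids were mostly at low counts, and Slc6a19 was the gene among them that rose. Of 35 such genes, 26 did not pass the filter, and of the 9 tested 1 was called higher and 0 lower by edgeR (0.793% and 0.355% of all tested genes), with a median log2 fold change of -0.012. Slc6a19 (B0AT1), a sodium-coupled carrier of neutral amino acids best known from gut and kidney epithelium, had 1219, 926, 1133 and 1124 normalised reads in Ndrg3 ctrl. In Ndrg3 TKO it had 2452, 2243, 2481 and 2135. Every knockout library was far above every control, and Slc6a19 rose by a log2 fold change of 1.08 (SE 0.078, 95% confidence interval 0.91 to 1.25, adjusted p = 3.51e-06, edgeR). Slc6a6, the taurine carrier of the same family, had 7896, 7931, 7848 and 7070 normalised reads in Ndrg3 ctrl and 9409, 9508, 9439 and 8148 in Ndrg3 TKO. Its groups did not overlap, and the log2 fold change of 0.25 (SE 0.061) missed the threshold by edgeR (adjusted p = 0.0779) and passed it by DESeq2 (adjusted p = 0.017), with adjusted p from 0.00045 to 0.424 over the alternatives other than omitting 1 library. Slc16a10, a carrier of aromatic amino acids, had 1318 ± 51.8 and 1307 ± 21.3 (SD, n = 4). Slc1a4, the relative of Slc1a5, and Slc7a7, the relative of Slc7a6, were at or below 42.1 normalised reads in every library.

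No gene that senses amino acids or responds to their lack passed the main test. Of 35 genes that signal amino acids to mTORC1, all were tested, 0 were called by edgeR, 1 had an unadjusted p under 0.05 (Fnip1, a partner of folliculin, log2 fold change 0.13, SE 0.056, adjusted p = 0.414), and the median was -0.009. Mtor itself went from 3699 ± 281 to 3945 ± 193 (SD, n = 4, log2 fold change 0.092, SE 0.060, adjusted p = 0.621, edgeR). Of 17 lysosomal and mitochondrial carriers 15 were tested and 0 were called, with 1 at an unadjusted p under 0.05 (Sfxn1, the mitochondrial serine carrier, log2 fold change -0.17, SE 0.075, adjusted p = 0.441, edgeR). The groups of Sfxn1 overlapped. Those of Slc25a12 did not, with higher counts in Ndrg3 TKO (log2 fold change 0.091, SE 0.043, adjusted p = 0.466, edgeR), as in 3.44% of all tested genes.

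The response to amino acid lack through GCN2 and ATF4 showed 14 tested of 20 genes, 0 called by edgeR, 10 with a negative sign and a median log2 fold change of -0.081. Atf4, its transcription factor, had 1297 to 1896 normalised reads in Ndrg3 ctrl and 1093 to 1620 in Ndrg3 TKO, with overlap (log2 fold change -0.25, SE 0.15, adjusted p = 0.588, edgeR). Over the 8 omissions of 1 library the log2 fold change of Atf4 ran from -0.358 to -0.144 (adjusted p from 0.274 to 0.838, edgeR). Asns, Chac1 and Nupr1, classical targets of this response, had at most 6.22 normalised reads in any library. Other genes of the list stood far higher, such as Ddit4 (4327 ± 583) and Phgdh (3179 ± 256) in Ndrg3 ctrl (SD, n = 4). In this list Psat1 and Psph, enzymes of serine synthesis, had an unadjusted p under 0.05 (log2 fold changes -0.21 and -0.16, adjusted p = 0.343 and 0.383, edgeR), as did 10.9% of all tested genes. The groups of Psph did not overlap. All 20 cytosolic aminoacyl-tRNA synthetases were tested, 16 had a negative sign, 0 were called, and the median was -0.067. Cars and Iars, for cysteine and isoleucine, had groups that did not overlap (log2 fold changes -0.24 and -0.13, adjusted p = 0.0951 and 0.295, edgeR). Of all tested genes, 7.04% had groups that did not overlap, made up of 3.44% higher and 3.59% lower in Ndrg3 TKO.

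Of the list of Myc and amino acid use, 18 of 20 genes were tested, 0 were called by edgeR and the median was -0.06. An unadjusted p under 0.05 was found for 3 of them, and for 10.9% of all tested genes. Myc had 3318 to 4539 normalised reads in Ndrg3 ctrl and 2955 to 3676 in Ndrg3 TKO, with overlap (log2 fold change -0.23, SE 0.098, adjusted p = 0.428, edgeR). Myc was called lower with a covariate for Y-linked reads (-0.30, adjusted p = 0.00603, edgeR). Over the 8 omissions of 1 library the log2 fold change of Myc ran from -0.289 to -0.138 (adjusted p from 0.295 to 0.724, edgeR). Glud1, which passes glutamate on to the citric acid cycle, had 5368 ± 234 and 6136 ± 123 (SD, n = 4) with no overlap (log2 fold change 0.193, SE 0.048, adjusted p = 0.0833, edgeR), and Got1, an aspartate aminotransferase, had 841 ± 15.6 and 756 ± 38.1 with no overlap (log2 fold change -0.154, SE 0.062, adjusted p = 0.380, edgeR). Groups without overlap made up 7.04% of all tested genes.

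Markers of the cell cycle and of maturity are given beside these values. All 10 cycling markers had a negative sign, 0 were called by edgeR and 0 had an unadjusted p under 0.05, with the list's sum from 37971 to 42208 in Ndrg3 ctrl and from 28067 (replicate 3) to 40124 in Ndrg3 TKO. Mki67 had 6943 to 7735 and 4787 to 7550 normalised reads. Of 10 markers of mature CD8 T cells 0 were called and 4 had an unadjusted p under 0.05, among them Ccr7, S1pr1 and Klf2 (log2 fold changes -0.26, -0.19 and -0.26, adjusted p from 0.13 to 0.203, edgeR). Of 8 markers of immature thymocytes 6 were tested, 0 were called, and Dntt had groups that did not overlap (450.4 ± 61.2 against 615 ± 83.8, SD, n = 4, log2 fold change 0.45, SE 0.11, adjusted p = 0.0783, edgeR). Over all tested genes, 10.9% had an unadjusted p under 0.05 and 7.04% had groups that did not overlap. The part of cycling and maturity in the transporter values was not tested.

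**Figure D5:**
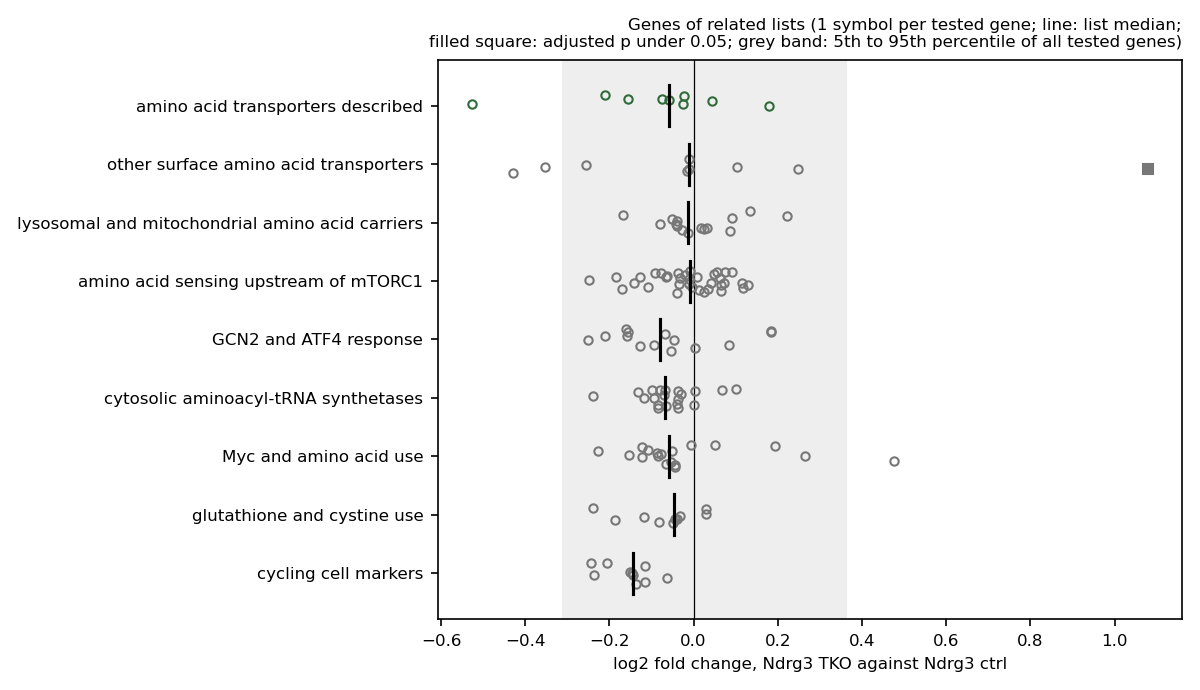
Log2 fold change of Ndrg3 TKO against Ndrg3 ctrl (horizontal axis) for each tested gene of the 10 transporters (green, 9 tested) and of 8 related lists (grey), with black lines at the list medians, a filled square for an adjusted p under 0.05 and a grey band from the 5th to the 95th percentile of all tested genes (-0.31 to 0.361). Apart from Slc6a19 the genes lie between -0.53 and 0.475, and the medians run from -0.15 (cycling markers) to -0.009 (amino acid sensing).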

How the data were processed

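Bulk RNA was extracted from sorted CD8SP thymocytes and made into libraries with a stranded total RNA kit after removal of ribosomal RNA. According to the labels and the methods, the authors used cutadapt for trimming, STAR for alignment to GRCm38.p4 and featureCounts for counting per gene; the strand and multimapping settings are not given in the sources used here. The deposited values are raw counts per gene in 1 table of 8 libraries, with no normalisation. Gene IDs were matched to symbols for 98.5% of the 47937 rows. Low counts were removed with filterByExpr, given the groups, TMM factors set the scale, and the test was that of edgeR 4.0.16 (robust quasi-likelihood, Benjamini-Hochberg adjustment over 14633 genes, threshold 0.05, no covariate, R 4.3.3). Correlations used log2 CPM with a prior count of 2. A count of 3, taken as the detection floor, corresponds to 0.0918 to 0.142 CPM; floors cover counting error only. The scripts were tested on simulated data. Replicates of 1 group differed by more than counting noise, and each was used as 1 sample. The alternatives were DESeq2 1.42.0, limma-voom (limma 3.58.1), other scalings and filters, a block on the replicate number, a covariate for Y-linked reads and the omission of each library. Text named all 10 transporters, Ndrg3, called genes and a few defining genes of each list. It also named the 3 genes most alike to members with an unadjusted p under 0.05. List genes with an unadjusted p under 0.05 or groups that did not overlap were named after their values were seen. The same holds for Slc16a10, Asns, Chac1, Nupr1, Ddit4 and Phgdh. Transcript lengths and positions came from GENCODE M21 and upstream sequences from RefSeq (GRCm38.p6). Some genes of the lists are not reported here by name. The members and lists were chosen with earlier results of these data known.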

Additional observations from a re-analysis of the deposited data

Results flagged for a closer look

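Each value below came from 1 library that stood apart in its group of 4 by Dixon's test at the 95% level. It was applied to 48 groups and picked out 6, where chance gives about 2.4. Slc38a2 was 10692 normalised reads in replicate 2 of Ndrg3 TKO, against 9058 to 9308 in the other 3. Slc6a6 was lowest in replicate 4 of both groups, at 7070 against 7848 to 7931 in Ndrg3 ctrl and at 8148 against 9409 to 9508 in Ndrg3 TKO. The ratio of Slc43a1 to Slc7a5 per kb was 0.203 in replicate 4 of Ndrg3 TKO, against 0.116 to 0.129. Reads of the mitochondrial genome made up 0.636% in replicate 4 of Ndrg3 ctrl, against 0.803% to 0.820%. Y-linked reads were at 340.5 CPM in replicate 2 of Ndrg3 ctrl, against at most 0.0752 CPM in the other 3.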

How the results depend on the processing

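Over 19 alternatives, Slc38a9, Slc6a19 and Ndrg3 kept their direction and their side of the threshold. Directions that turned all belonged to differences near 0 and to the omission of 1 library: Slc3a2 was 0.00351 without replicate 2 of Ndrg3 ctrl and 0.0223 without replicate 4 of Ndrg3 TKO (lowest of the 8 omissions -0.0561), Slc7a6 was 0.0169 without replicate 3 of Ndrg3 ctrl and 0.00767 without replicate 1 of Ndrg3 TKO (lowest -0.0554), Slc38a1 was -0.0105 without replicate 4 of Ndrg3 ctrl (highest 0.0871), and Slc7a1 was 0.00248 without replicate 2 of Ndrg3 ctrl (lowest -0.14). Slc43a1 passed the threshold with DESeq2 (-0.526), with no filter on low counts (-0.524) and without replicate 4 of Ndrg3 TKO, and ranged from -0.679 to -0.455 over the omissions, so members called lower were 1 with DESeq2, 1 with no filter and 0 to 1 over the omissions, against 0.

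The number of genes called, 168 (116 higher, 52 lower), was 309 (191, 118) with DESeq2, 274 (176, 98) with no filter, 437 (262, 175) with the Y-linked covariate, 92 (73, 19) in the 5 libraries without Y-linked reads, and 90 to 158 (72 to 110, 18 to 48) when 1 library was left out. limma-voom called 33 lower. The causes were not tested. The omissions and the fit to the libraries without Y-linked reads also held fewer libraries.

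The labels do not tie same-numbered libraries to a shared litter, batch or day. The numbers that head the columns of the count table lie close together for same-numbered libraries of both groups. Those of replicates 2 and 3 fall in a single run, and the labels do not say what these numbers mark. In the data 3 of 4 pairs deviated together (r = 0.181, 0.415, -0.055 and 0.301), and 6 of 8 libraries correlated best with their own number. Under a replicate block 800 of the 14633 tested genes were called (435 higher, 365 lower), among them 164 of the 168. With the block 1 member was called higher, Slc38a2 (0.177), and 3 lower, Slc7a5 (-0.208), Slc43a1 (-0.538) and Slc1a5 (-0.157), with adjusted p from 0.00286 to 0.0339 (edgeR), and Atf4 (-0.251, adjusted p = 0.00457) and Myc (-0.225, adjusted p = 0.0101) were called lower too. With the block and the Y-linked covariate together, a fit chosen after seeing the data, 1187 of the 14633 tested genes were called (666 higher, 521 lower). In that fit 1 member was higher, Slc38a2 (0.217), and 3 were lower, Slc7a5 (-0.17), Slc43a1 (-0.503) and Slc1a5 (-0.186). Depth limited Slc7a11 alone among the members.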
